A study of Homo sapiens with 6 samples.

Results

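The 84 genes described here mostly encode proteins that reposition nucleosomes, add or remove histone methyl groups, remove histone acetyl groups, or bind acetylated histones. They were chosen by symbol from 11593 listed genes. The symbols begin with KDM, KMT, SETD, HDAC, SMARC, ARID, CHD, BRD or EZH, followed by the number or letter that marks the family. KDM5D was left out by rule. The 84 genes held 241 of 28768 listed transcripts. Their mRNAs were measured in 6 sequencing libraries from SK-Hep1, an established human line labelled as hepatocellular carcinoma. In 3 libraries the ChIRP probe set, biotinylated antisense DNA that captures an RNA together with what is crosslinked to it, was directed at SNHG10, a long noncoding RNA. In 3 control libraries it was directed at LacZ, a bacterial gene used as a control target. The comparison asks which mRNAs associate with SNHG10. The SNHG10 probes came from RiboBio and the LacZ probes from Millipore, so probe target and probe source cannot be told apart. No genetic change or drug treatment is given for either group. The design states that retrieved RNA was sequenced, while the extraction protocol describes Trizol RNA of cells with no pull-down step, so the fraction measured is not settled by the sources used here. All listed rows are protein coding, and SNHG10 itself was not analysed here. The labels do not say whether the replicates were separate cultures, and the p-values therefore reflect variation among these libraries alone, possibly technical.

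Nucleosomes, DNA wound on histones, limit access to genes. Remodelers of the SWI/SNF, ISWI and CHD families use ATP to slide, evict or space them. Methyltransferases of the SET-domain type and the demethylases that oppose them set marks read as active or repressed, and deacetylases remove the acetyl groups that bromodomain proteins bind. Subunits and regulators of these machines are recurrently mutated or overexpressed in liver cancer, ARID1A and ARID2 among them.

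Values are FPKM, fragment counts scaled by transcript length and library size, summed over the transcripts listed for a gene. FPKM are relative to the library total, and in bulk RNA fewer cells of a type and less RNA per cell cannot be told apart. Library totals ran from 268800 to 277100 FPKM, and the read depth behind them is unknown. The 84 genes together held 0.321%, 0.335% and 0.346% of the total with SNHG10 probes, against 0.318%, 0.352% and 0.346% with LacZ probes, ranges that overlap. Defining hepatocyte markers were low or not analysed. Of 19 hepatocyte markers 2 were among the rows, SERPINA1 at 0 to 1.24 FPKM and CPS1 at 0.505 to 1.53, with sums of 1.04 to 1.72 and 1.25 to 2.12, and the other 17 were not analysed here. Of 6 epithelial markers 4 were listed. Keratins KRT8, KRT18 and KRT19 were abundant (394 to 1122 FPKM), and KRT7 was lower (13.85 to 21.62). KRT8 did not overlap between the probe sets (466 to 549 with SNHG10 and 589 to 633 with LacZ probes). Of 9 mesenchymal and stellate markers 5 were listed. VIM was abundant (833 to 1522). ACTA2 (7.695 to 40.76), COL3A1 (17.55 to 27.6), PDGFRB (0.8775 to 2.694) and COL1A1 (0.7154 to 4.369) were lower. Of 12 endothelial markers 3 were listed, with a summed level of 42.4 to 51.2 FPKM with SNHG10 probes and 46.4 to 61.8 with LacZ probes. EGFL7 among them did not overlap between the probe sets (8.304, 7.45 and 8.18 against 25.98, 18.8 and 14.03). ENG (41.76, 33.64 and 32.35 against 32.68, 41.78 and 30.66) and ROBO4 (1.151, 2.005 and 1.823 against 0.8053, 1.278 and 1.763) overlapped. Their log2 differences, SNHG10 minus LacZ probes, were positive (0.04 and 0.23), opposite to EGFL7 (-1.16). The part of these markers in the results below was not tested. Of 7 leukocyte markers, CD14 (0.763 to 2.69) and CD68 (35.3 to 54.4) were listed.

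Most of the chromatin genes had moderate FPKM values. The median gene averaged 7.39 FPKM over the 6 libraries, against 6.54 for all listed genes, and 43 of 84 lay above the median of all genes. Averages ran from 0.463 FPKM for KDM8 to 47.1 for CHD4. Only 12 genes averaged at least 20 FPKM, 44 lay between 5 and 20, and 28 below 5. Values above 0 in all 6 libraries were found for 75 genes (89.3%, against 81.4% of all listed genes). Their listed gene spans were long, at a median of 55.4 kb against 27.3 kb for all genes, and 58 had more than 1 listed transcript. The spread between libraries of a probe set, a median SD of 0.41 on the log2(FPKM + 1) scale, was near that of all genes tested (0.40). Across the 84 genes, log2 values of library pairs correlated at a mean Pearson r of 0.781 within the SNHG10 libraries, 0.803 within the LacZ libraries and 0.807 between them. Over all genes the same means were higher, at 0.893, 0.894 and 0.891. These are descriptions over genes that are not independent. Across the 84 genes, the pairs between probe sets were no less alike than those within.

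**Figure D1:**
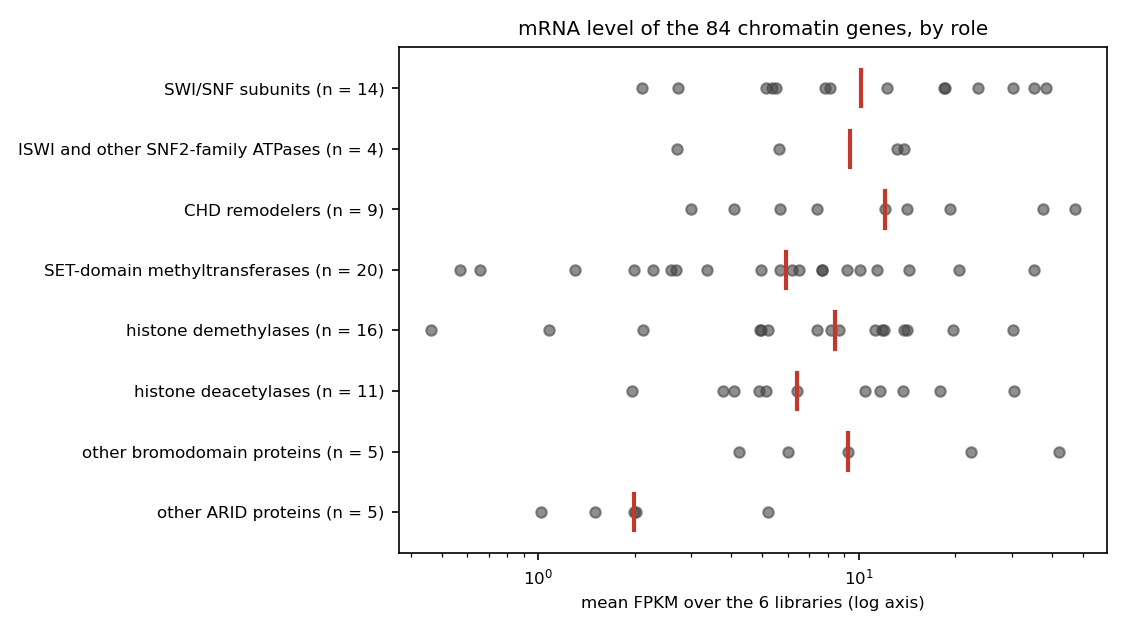
Mean FPKM over the 6 libraries (log axis) of the 84 chromatin genes, 1 point per gene, grouped by role, with a red line at the median of each group. Medians ran from 1.99 FPKM for the other ARID proteins to 12.1 for the CHD remodelers, and every group but the ISWI and other ARID proteins reached above 20 FPKM.

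No chromatin gene was called higher or lower with SNHG10 probes. The limma fit on log2(FPKM + 1) covered 10304 genes that reached 1 FPKM in 3 or more libraries, 79 of them chromatin genes. KDM7A, KDM8, SETD2, SETD6 and SETD9 fell below that minimum. At a Benjamini-Hochberg adjusted p of 0.05, 0 of 79 were called, as were 0% of all genes tested, and the smallest adjusted p of a chromatin gene was 0.885. An unadjusted p under 0.05 was found for 2 of 79 (2.53%), against 5.42% of all genes. The 3 libraries of a probe set lay wholly above or below the other in 6 of 79 genes (7.59%), against 11.4% of all genes. Of these 6, 1 was higher (1.27%, against 4.22%) and 5 lower with SNHG10 probes (6.33%, against 7.21%). Both shares were below the background. The median log2 difference, SNHG10 minus LacZ probes, was -0.10 over the 79 genes and -0.05 over all genes tested. It was -0.05 and -0.00267 after median-ratio scaling. Negative differences were held by 47 of the 79 (59.5%) and by 56.7% of all genes. SE of single genes had a median of 0.35 and ran from 0.17 to 1.05, so an uncalled gene is not shown to be alike in both sets.

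**Figure D2:**
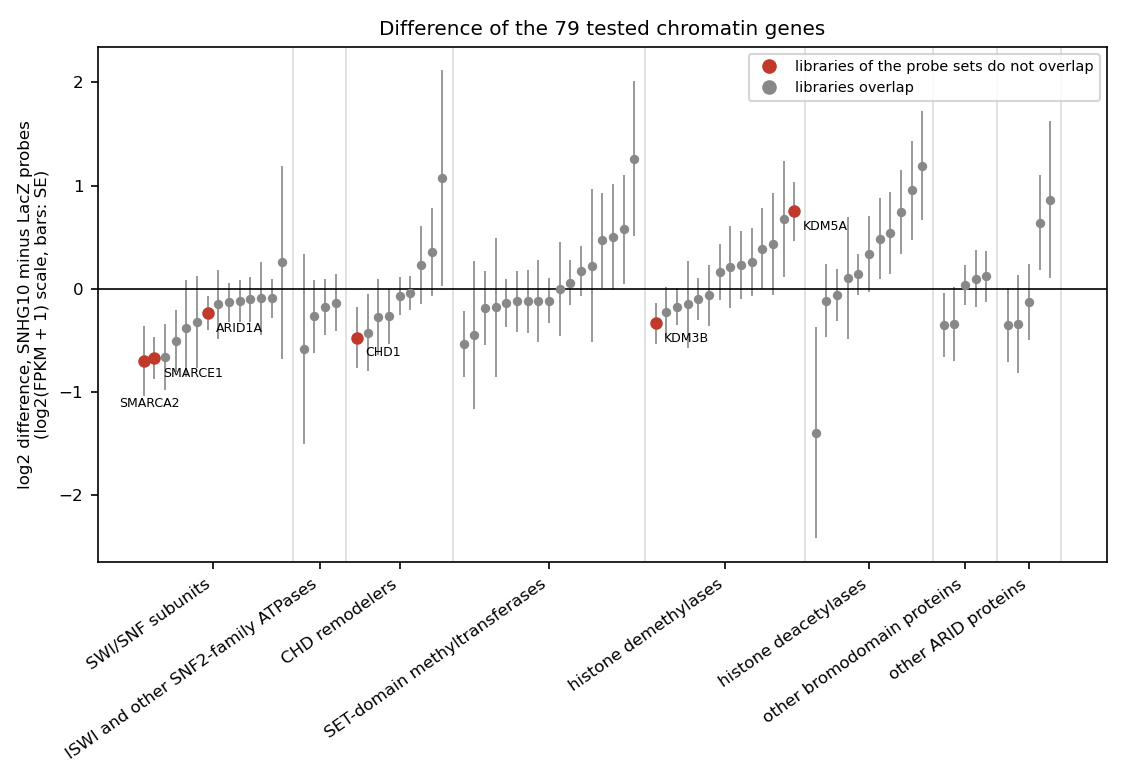
Log2 difference (SNHG10 minus LacZ probes, log2(FPKM + 1) scale) of the 79 tested chromatin genes, ordered within role, with bars of 1 SE. The 6 red points are genes whose libraries do not overlap between the probe sets, from SMARCA2 at -0.70 to KDM5A at 0.75, and none of the 79 passed the adjusted threshold.

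SWI/SNF complexes are built on an ATPase, SMARCA4 or SMARCA2, and a core that includes SMARCB1 and the SMARCC, SMARCD and SMARCE1 subunits. The gene closest to the threshold among all members was SMARCE1, the HMG-box subunit (chromosome 17, 38781214 to 38804760, minus strand, hg19). SMARCE1 read 9.33, 8.78 and 9.41 FPKM with SNHG10 probes, against 14.04, 15.9 and 15.6 with LacZ probes. All 3 SNHG10 libraries were lower than every LacZ library, and the spread within each probe set was small, at 9.17 ± 0.345 against 15.2 ± 1.02 (SD, n = 3 each). The log2 difference was -0.67 ± 0.21 (SE; 95% interval -1.15 to -0.19), with an unadjusted p of 0.0120 and an adjusted p of 0.885 by limma. Of its 3 listed transcripts, the long SMARCE1-202 read 7.95, 7.13 and 8.902 against 8.42, 11.03 and 10.6, and the shorter SMARCE1-208 read 1.38, 1.65 and 0.512 against 5.63, 1.19 and 5.07. Neither transcript separated the probe sets alone. The remaining SMARCE1-218 was above 0 in LacZ replicate 2 alone (3.72), and is part of the sum of that library.

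The alternative ATPase SMARCA2 (chromosome 9, 2017586 to 2193624, plus strand) read 1.19, 1.83 and 2.61 FPKM with SNHG10 probes, against 3.46, 3.15 and 4.17 with LacZ probes. Its libraries did not overlap, at a low level in both sets (log2 difference -0.70 ± 0.34, adjusted p = 0.885 by limma). Of its listed transcripts, SMARCA2-209 read 0.775, 0.843 and 2.206 against 2.53, 2.33 and 1.12, and overlapped. SMARCA2-263 read 0.414, 0.987 and 0.401 against 0.931, 0.815 and 1.187, and overlapped too. The short SMARCA2-237 was above 0 in LacZ replicate 3 alone (1.865), and the separation of the gene was not tested without it. SMARCA4, the ATPase more often found in dividing cells, read 4.45, 4.83 and 5.99 against 3.69, 6.49 and 7.65, and its libraries overlapped. SMARCA4 made up 78.9%, 72.5% and 69.7% of the summed FPKM of both ATPases with SNHG10 probes, against 51.6%, 67.3% and 64.7% with LacZ probes. Among 18 pairs of related genes, this was the 1 share whose libraries did not overlap between the probe sets. Single genes did not overlap in 11.4% of all genes tested, and no such background was computed for shares. The share also contains the SMARCA2 values given above, SMARCA2-237 in LacZ replicate 3 included, so it is not a separate result.

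ARID1A, the DNA-binding subunit of the canonical BAF form (chromosome 1, 27022524 to 27108595, plus strand), read 31.6, 26.03 and 25.5 FPKM with SNHG10 probes, against 31.96, 34.3 and 31.8 with LacZ probes. The gap between the sets was narrow, at 31.6 against 31.8 FPKM for the nearest libraries (log2 difference -0.24 ± 0.17, adjusted p = 0.928 by limma). Its paralog ARID1B read 5.896, 8.21 and 5.41 against 7.205, 9.16 and 12.98, and ARID1A was the larger of the pair in every library, at 71.0% to 84.3% of their sum. ARID2, of the PBAF form, read 4.76, 7.95 and 9.99 against 5.77, 11.1 and 7.39. SMARCD1 read 8.36, 15.8 and 19.7 against 19.1, 27.1 and 21.5, and overlapped only through the highest SNHG10 and the lowest LacZ library (log2 difference -0.66 ± 0.32, adjusted p = 0.885 by limma). Without SNHG10 replicate 1 the difference was -0.33.

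The core subunits SMARCC2, SMARCB1, SMARCC1 and SMARCD2 had overlapping libraries. SMARCC2 read 35.3, 40.9 and 34.3 FPKM against 36.7, 48.9 and 33.6, and SMARCB1, lost in rhabdoid tumours, read 26.5, 35.2 and 39.6 against 31.3, 41.4 and 36.9. SMARCC1 read 17.2, 17.5 and 17.7 against 16.7, 21.6 and 19.8, and SMARCD2 27.1, 24.2 and 17.2 against 22.6, 23.3 and 26.9. SMARCC1 was under SMARCC2 in every library (30.0% to 37.0% of their sum), whereas the order of SMARCD1 and SMARCD2 varied between libraries (23.6% to 53.8%). Each of these 4 core mRNAs was above both ATPases in every library. BRD9, of the non-canonical form, was the 1 subunit with a positive difference. It read 15.1, 0.355 and 3.89 FPKM against 0.565, 6.18 and 4.59, and a single SNHG10 library lay above the LacZ range. BRD7 (2.73, 5.05 and 5.56 against 10.9, 4.37 and 3.56) and SMARCD3 (1.14, 3.67 and 0.642 against 2.03, 3.38 and 1.75) overlapped.

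Of the 14 SWI/SNF subunits, 13 had a negative and 1 a positive log2 difference, with a median of -0.19, and 0 were called. The same 13 against 1 stood after median-ratio and quantile scaling, and 11 to 13 were negative over the 15 alternative settings, with medians from -0.35 (without LacZ replicate 1) to -0.12 (pseudocount of 5). The summed SWI/SNF level was 191, 200.2 and 198 FPKM with SNHG10 probes, against 206, 256 and 228 with LacZ probes, which did not overlap. After median-ratio scaling the sums were 193, 202 and 195 against 200.4, 246 and 217, and overlapped. The sums were formed after the single values had been seen, and a count of 13 in a set chosen with results known is a description. Of 15 tested SWI/SNF subunits outside the symbol rule, such as PBRM1, ACTL6A and SS18, 7 were positive and 8 negative with a median of -0.07. The smallest p among them were those of BCL7A (2.81, 5.38 and 4.75 against 4.14, 10.01 and 6.97) and DPF1 (1.16, 1.25 and 2.37 against 0, 0 and 2.43).

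**Figure D3:**
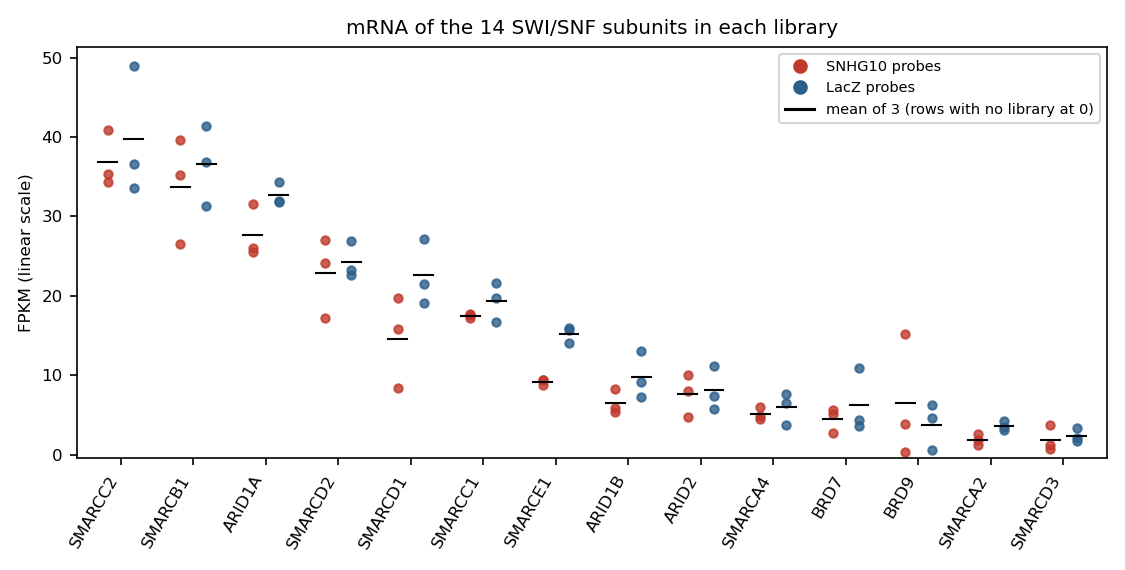
FPKM (linear scale) of the 14 SWI/SNF subunits in each of the 3 SNHG10 (red) and 3 LacZ (blue) libraries, with black lines at the means. SMARCE1, SMARCA2 and ARID1A are the subunits whose red points all lie under their blue points, and BRD9 spans 0.355 to 15.1 FPKM within the SNHG10 libraries.

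The remaining SNF2-family ATPases had 4 negative differences and 0 calls. SMARCA5, the main ISWI ATPase of nucleosome spacing, read 6.21, 4.39 and 5.33 FPKM against 5.15, 6.09 and 6.505. Its paralog SMARCA1 read 1.23, 13.2 and 22.2 against 4.15, 22.2 and 19.6, with a low replicate 1 in both probe sets. SMARCA5 accordingly made up 83.5% of the pair in an SNHG10 library and 19.3% in another. SMARCAL1, which re-anneals DNA at stalled forks, read 14.7, 13.9 and 8.601 against 13.2, 11.9 and 16.6, and SMARCAD1 read 1.38, 3.14 and 2.68 against 2.51, 3.601 and 2.93.

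CHD remodelers held the most abundant mRNA of all 84 genes, CHD4, the main ATPase of the NuRD repressor complex. CHD4 read 43.98, 40.1 and 53.7 FPKM with SNHG10 probes, against 40.2, 48.3 and 56.4 with LacZ probes, and CHD3, its alternative in NuRD, 33.02, 36.4 and 41.2 against 40.2, 33.04 and 40.5. The ranges nearly coincided, and CHD4 made up at most 59.4% of the pair. CHD1, which binds methylated histone H3 at active promoters (chromosome 5, 98189689 to 98264661, minus strand), read 3.84, 2.98 and 2.903 against 5.08, 4.19 and 5.38. CHD1 was the CHD gene whose libraries did not overlap, at a log2 difference of -0.47 ± 0.29 (adjusted p = 0.928 by limma).

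CHD2 read 15.7, 21.1 and 13.4 FPKM against 10.96, 27.4 and 26.6. CHD8, a brake on beta-catenin targets, read 14.8, 12.6 and 10.4 against 14.4, 20.8 and 11.8, and CHD9 8.33, 6.20 and 9.65 against 5.16, 3.31 and 11.8. CHD7 read 1.41, 3.20 and 2.63 against 4.99, 2.82 and 2.904. CHD6 read 4.21, 4.65 and 10.3 against 3.88, 6.17 and 4.89, and these 5 overlapped. CHD1L, a remodeler activated by poly(ADP-ribose), read 16.6, 8.203 and 13.9 against 24.6, 9.22 and 0. That listed 0 lay beside a LacZ library of 24.6, so its log2 difference of 1.07 ± 1.05 turned to -0.27 without LacZ replicate 3. Of the 9 CHD genes, 3 were positive and 6 negative (4 and 5 after median-ratio scaling), with a median of -0.07 that was -0.19 without LacZ replicate 1.

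Histone demethylases included the 1 gene whose libraries were all higher with SNHG10 probes, KDM5A, which removes methyl groups from lysine 4 of histone H3 (chromosome 12, 389295 to 498620, minus strand). KDM5A read 15.9, 17.5 and 11.5 FPKM with SNHG10 probes, against 6.73, 11.4 and 7.52 with LacZ probes. The nearest libraries, 11.48 and 11.44 FPKM, almost touched. The log2 difference was 0.75 ± 0.28 (95% interval 0.09 to 1.41), with an unadjusted p of 0.0300 and an adjusted p of 0.885 by limma. Its longest transcript overlapped between the sets. KDM5A-201 read 8.59, 5.73 and 9.26 against 6.73, 6.85 and 7.52, while the shorter KDM5A-204 read 7.28, 5.16 and 2.22 against 0, 4.59 and 0, and KDM5A-202 was above 0 in SNHG10 replicate 2 alone (6.63).

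Its relatives KDM5B and KDM5C overlapped, at 6.46, 5.195 and 5.07 FPKM against 4.43, 4.98 and 5.204, and at 14.2, 28.3 and 15.8 against 15.6, 19.8 and 23.8. KDM3B, which acts on lysine 9 of histone H3 (chromosome 5, 137688285 to 137772716, plus strand), read 12.9, 10.5 and 12.9 against 15.9, 15.7 and 14.8. Every SNHG10 library of KDM3B was lower, at a log2 difference of -0.34 ± 0.20 (adjusted p = 0.928 by limma). It is listed with a single transcript. KDM1A, the flavin-dependent demethylase also known as LSD1, was the most abundant of the family at 24.3, 29.6 and 31.4 FPKM against 32.9, 35.5 and 28.1, and was above KDM1B (11.5, 10.8 and 13.4 against 11.1, 14.6 and 5.95) in every library.

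KDM4A read 12.8, 15.4 and 12.6 FPKM against 13.8, 14.3 and 15.8. The demethylases of lysine 27 of histone H3, KDM6A and KDM6B, read 5.74, 4.42 and 3.22 against 4.896, 2.696 and 8.70, and 8.92, 7.67 and 7.25 against 8.38, 9.77 and 10.2. KDM6B was the larger of that pair in every library. KDM2B, which binds unmethylated CpG islands, varied widely within both sets, at 13.6, 4.96 and 11.01 against 2.52, 4.23 and 12.8. KDM2A, its paralog, read 13.7, 11.5 and 11.8 against 5.03, 15.1 and 14.8. KDM4C, which acts on lysine 9, read 6.602, 10.3 and 7.903 against 3.07, 7.17 and 9.26, and KDM3A 4.43, 0.663 and 3.18 against 1.89, 1.33 and 1.27. KDM4B overlapped at 3.65 to 7.46 FPKM, and KDM8 was between 0 and 0.897 throughout. Of 14 tested demethylases, 8 were positive and 6 negative, with a median of 0.18 and 0 calls. Without LacZ replicate 1, 6 were positive and 8 negative with a median of -0.07, and with no filter 8 and 8 with a median of 0.05.

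Among the SET-domain methyltransferases, 17 of 20 were tested, 7 positive and 10 negative (8 and 9 after median-ratio scaling, and 9 and 8 without LacZ replicate 1), and 0 had an unadjusted p under 0.05. KMT2D, a methyltransferase of enhancers, led with 33.6, 30.4 and 36.4 FPKM against 44.9, 39.4 and 26.9. Its partner in that role, KMT2C, read 3.51, 0 and 5.06 against 1.505, 3.395 and 2.62, at most 12.2% of their sum. The promoter-linked KMT2A and KMT2B read 12.8, 6.57 and 6.41 against 7.26, 13.8 and 8.31, and 10.4, 12.8 and 11.6 against 10.96, 10.2 and 12.2. KMT2B varied little between libraries, whereas KMT2A was the larger of the pair in SNHG10 replicate 1 and LacZ replicate 2 only.

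SETD1A and SETD1B, which make most trimethylated lysine 4 of histone H3, read 4.87, 9.02 and 8.305 FPKM against 7.499, 7.35 and 8.96, and 11.6, 12.9 and 16.4 against 12.7, 16.9 and 15.5. SETD1B was the larger in every library. KMT2E read 15.2, 24.9 and 25.9 against 18.5, 18.8 and 19.4. KMT5A, the sole monomethyltransferase of lysine 20 of histone H4, read 7.05, 4.397 and 7.65 against 1.56, 0.0606 and 9.07, and had the smallest unadjusted p of the family, 0.133 (log2 difference 1.26 ± 0.75). The difference was 0.51 without LacZ replicate 2 and 2.13 without LacZ replicate 3. SETD3, which methylates actin, read 7.82, 5.08 and 11.95 against 9.97, 12.8 and 12.99, and SETD5 2.62, 7.06 and 12.1 against 4.22, 6.03 and 2.13.

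EZH2, the catalytic subunit of Polycomb repressive complex 2, was low and unsteady. It read 3.78, 3.55 and 0.212 FPKM with SNHG10 probes, against 3.13, 0 and 3.001 with LacZ probes, with a low value in each set. EZH1 read 5.93, 7.52 and 4.48 against 11.1, 3.81 and 6.14, and was above EZH2 in every library. SETDB1, of lysine 9, read 6.83, 7.06 and 7.59 against 11.8, 7.22 and 5.66. SETD7 was highest in SNHG10 replicate 3 (14.9, beside 4.13 to 4.76 in the other 5), and KMT5B, KMT5C and SETD4 overlapped under 6.57 FPKM. SETD2, which trimethylates lysine 36 of histone H3, read 0.287, 0.446 and 3.01 against 3.59, 0.06701 and 0.388. SETD6 and SETD9 were at most 1.72 FPKM and were listed at 0 in libraries of both sets. Of 7 tested partners of EZH2, 3 were positive and 4 negative, and MTF2 had the smallest p, at 0.7505, 1.91 and 2.05 against 5.19, 3.03 and 3.996 FPKM (adjusted p = 0.885 by limma), followed by JARID2 at 2.98, 4.74 and 4.25 against 6.39, 4.16 and 6.77.

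No histone deacetylase was called. Of 11 genes, 8 were positive and 3 negative, under median-ratio and quantile scaling too, with a median log2 difference of 0.34. The median was 0.18 without SNHG10 replicate 2, and 0.12 with 5 positive and 3 negative among genes that reached 5 FPKM in 3 or more libraries. None had libraries that did not overlap. HDAC10 had the smallest p, at 1.65, 2.95 and 4.39 FPKM with SNHG10 probes, against 0.437, 2.28 and 0 with LacZ probes (log2 difference 1.19 ± 0.53, unadjusted p of 0.0555, adjusted p of 0.885 by limma). HDAC8, an X-linked class I enzyme, read 14.2, 4.44 and 7.87 against 2.098, 3.36 and 6.47, and the class IIa enzyme HDAC4 6.27, 2.55 and 7.66 against 3.06, 2.55 and 2.302. In both genes a single SNHG10 library reached down into the LacZ range.

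The most abundant deacetylase mRNA was HDAC7, also of class IIa, at 26.7, 33.7 and 35.5 FPKM against 24.5, 34.96 and 27.7. HDAC1 and HDAC2, the paired catalytic subunits of the NuRD, SIN3 and CoREST complexes, read 21.6, 12.1 and 19.6 against 17.9, 19.4 and 17.03, and 6.88, 18.7 and 10.8 against 10.97, 8.38 and 7.102. HDAC1 was the larger in 5 of 6 libraries, with SNHG10 replicate 2 as the exception (39.3% of the sum). HDAC6, the cytoplasmic tubulin deacetylase, read 14.9, 16.03 and 0 against 10.9, 25.8 and 14.4. HDAC5 read 5.03, 6.08 and 3.45 against 3.43, 5.598 and 7.26. HDAC3, the NCoR enzyme, ranged from 3.61 to 19.7 FPKM within the SNHG10 libraries alone. HDAC9 read 5.19, 4.39 and 3.70 against 5.29, 2.16 and 1.87, and HDAC11, the class IV enzyme, 8.94, 5.24 and 3.79 against 5.49, 2.49 and 3.25.

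**Figure D4:**
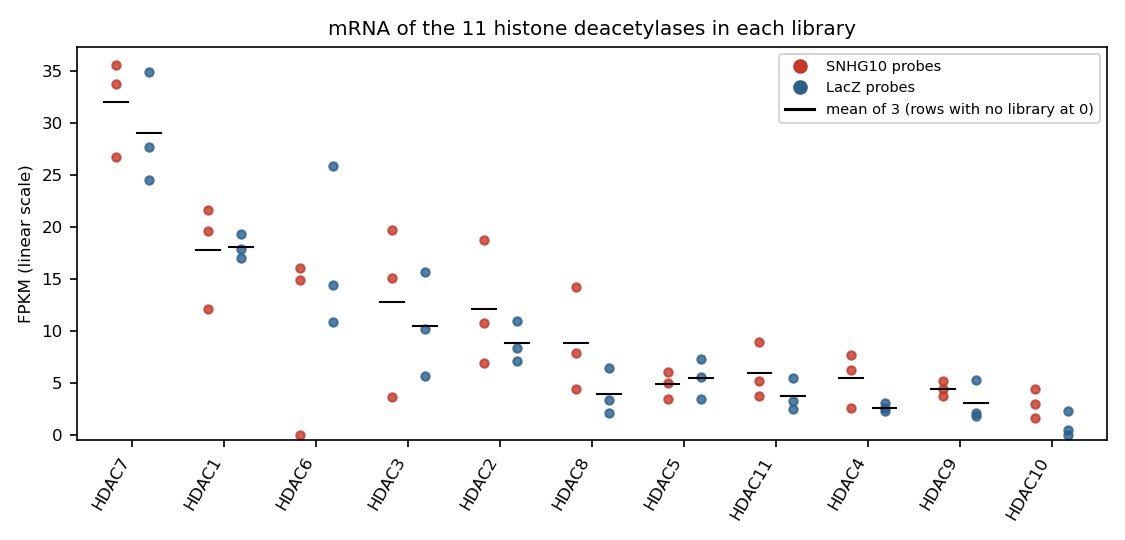
FPKM (linear scale) of the 11 histone deacetylases in each library, red for SNHG10 and blue for LacZ probes, with black lines at the means of genes with no library at 0. Red and blue points overlap for every gene, and HDAC6 is listed at 0 in a single SNHG10 library beside values of 10.9 to 25.8 in the other 5.

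BRD2, a BET protein that binds acetylated histones, was the most abundant bromodomain mRNA. BRD2 read 32.4, 44.2 and 54.9 FPKM against 51.3, 32.96 and 35.8. BRD3 read 4.95, 5.92 and 4.203 against 10.97, 4.94 and 5.07, BRD8, of the TIP60 complex, 9.21, 10.2 and 8.86 against 7.27, 7.33 and 12.4, and BRD1 3.24, 2.699 and 4.97 against 4.65, 5.02 and 4.71. These 4 overlapped. The ARID proteins outside SWI/SNF were low. ARID4A read 10.2, 5.44 and 2.88 against 0.455, 10.5 and 1.77, ARID4B 1.28, 0.563 and 1.58 against 0.494, 2.17 and 2.96, and ARID3B 2.51, 0.690 and 1.196 against 0.691, 1.03 and 0. ARID3A and ARID5B stayed between 1.20 and 3.54 FPKM, and all 5 overlapped.

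Sums can hide opposite movements of a gene's transcripts, so transcript rows were tested in their own fit. Of 241 rows, 131 reached the minimum, and 0 were called, against 0.0903% of the 16618 rows tested, with a smallest adjusted p of 0.222. An unadjusted p under 0.05 was found for 7 (5.34%, against 5.66%). Libraries did not overlap in 15 rows (11.5%, against 10.5%), 4 higher (3.05%, against 4.48%) and 11 lower (8.40%, against 6.06%) with SNHG10 probes. These shares lay near those of all rows. A value of 0 in all libraries of a probe set, with more than 1 FPKM in all libraries of the other, was found for 2 rows (1.53%, against 0.867%). Of the member rows, 32.4%, 31.5% and 34.4% were listed at 0 with SNHG10 probes, against 35.3%, 34.9% and 34.9% with LacZ probes, with no overlap. The nearest libraries, at 83 and 84 of the 241 rows, almost touched, and no background was computed for such a share. Over all rows the shares were 32.6%, 33.8% and 32.1% against 32.5%, 32.0% and 30.5%.

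SETD5 and HDAC7 held the 2 rows listed at 0 throughout a probe set. SETD5-205 (chromosome 3, 9470609 to 9519838, plus strand) read 2.54, 2.07 and 4.06 FPKM with SNHG10 probes and 0 in each LacZ library, with an unadjusted p of 0.00179 and an adjusted p of 0.222 by limma. The other 5 SETD5 transcripts together read 0.0810, 4.98 and 8.01 against 4.22, 6.03 and 2.13, and different ones were above 0 in different libraries. HDAC7-211 (chromosome 12, 48191971 to 48214356, minus strand) was listed at 0 with SNHG10 probes throughout, and its LacZ libraries read 2.21, 3.99 and 1.44 (adjusted p = 0.327 by limma). HDAC7-202 was higher in every SNHG10 library, at 7.23, 9.66 and 10.8 against 6.37, 0.0117 and 0, and HDAC7-205 read 4.34, 5.19 and 8.65 against 3.05, 21.4 and 17.6. In LacZ replicates 2 and 3, HDAC7-205 was high where HDAC7-202 was near 0, and the HDAC7 sums overlapped.

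KDM1A-202 (chromosome 1, 23345986 to 23410181, plus strand) read 6.17, 2.42 and 5.35 FPKM with SNHG10 probes, against 8.75, 17.4 and 15.3 with LacZ probes (log2 difference -1.41 ± 0.43, unadjusted p of 0.0150, adjusted p of 0.618). KDM1A-201, which spans nearly the same interval, read 18.1, 27.1 and 26.01 against 24.1, 13.03 and 12.8. KDM1A-202 averaged 16.4% of the KDM1A sum with SNHG10 probes and 43.0% with LacZ probes, and the sum itself overlapped. ARID1A-202 read 5.14, 4.88 and 7.696 against 16.5, 12.1 and 7.76, and the other 3 ARID1A transcripts together 26.5, 21.1 and 17.8 against 15.4, 22.2 and 24.0. The latter overlapped, while ARID1A-202 did not, by 7.70 against 7.76 FPKM. Whether reads were divided between the transcripts of a gene differently from library to library was not tested.

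**Figure D5:**
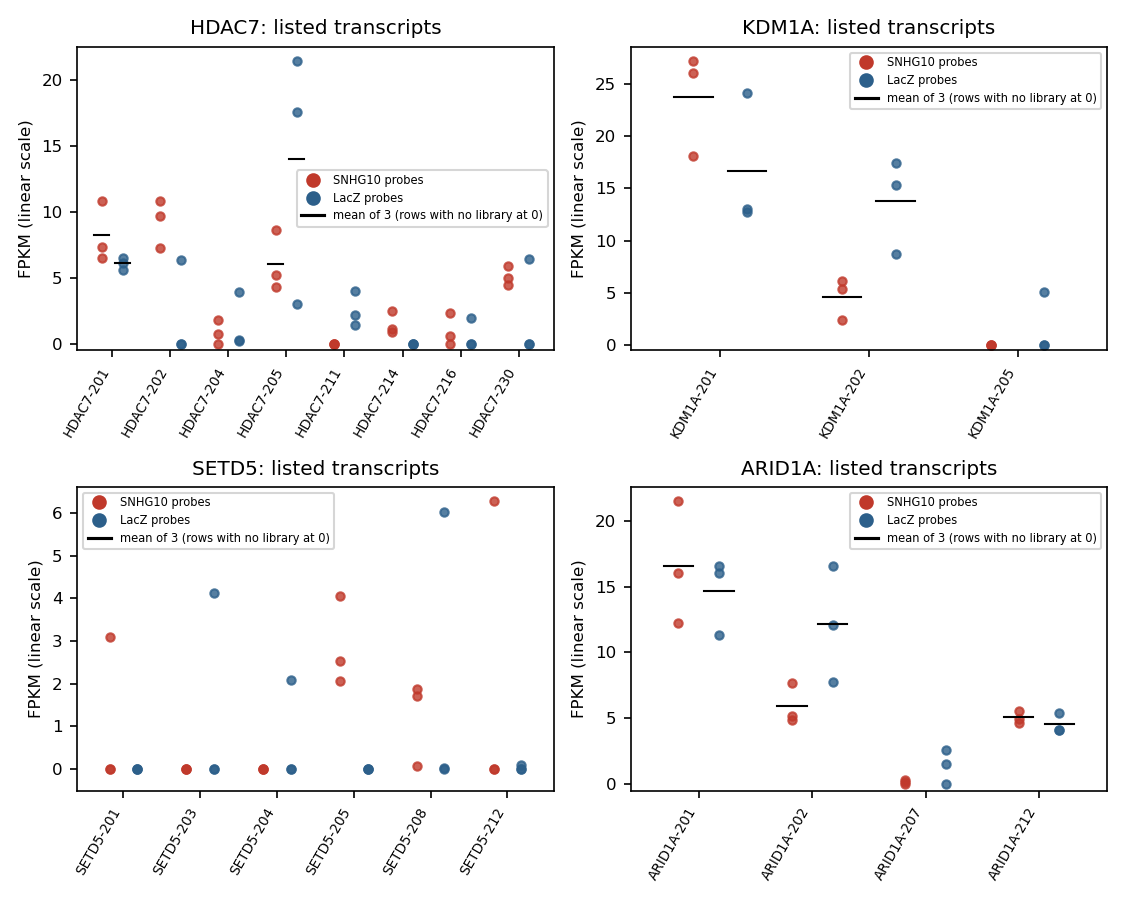
FPKM (linear scale) of each listed transcript of HDAC7, KDM1A, SETD5 and ARID1A in the 3 SNHG10 (red) and 3 LacZ (blue) libraries, with black lines at the means of transcripts with no library at 0. SETD5-205 is above 0 in the red libraries only and HDAC7-211 in the blue libraries only, while the red points of KDM1A-202 and ARID1A-202 lie under the blue ones.

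Partners of these proteins outside the symbol rule were tested in the same fit. Of 180 genes on 10 lists, 167 were listed and 161 tested, 69 positive and 92 negative, with a median log2 difference of -0.06. None was called (smallest adjusted p = 0.840 by limma), 10 had an unadjusted p under 0.05 (6.21%, against 5.42% of all genes) and 13 did not overlap between the probe sets (8.07%, against 11.4%). The smallest p was that of the acetyltransferase CREBBP, which acetylates lysine 27 of histone H3. CREBBP read 8.097, 9.93 and 10.7 FPKM with SNHG10 probes, against 15.6, 24.8 and 21.7 with LacZ probes, a log2 difference of -1.02 ± 0.25 with an unadjusted p of 0.00350. Every SNHG10 library was lower. The MSL and NSL acetyltransferase KAT8 read 4.83, 3.31 and 2.17 against 7.504, 6.08 and 7.78, also without overlap. Over the 32 acetyltransferase genes, 16 were positive and 16 negative.

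The Polycomb subunit BMI1 read 2.25, 3.301 and 2.27 FPKM against 5.28, 14.2 and 5.62, and RING1 15.6, 21.98 and 21.9 against 21.02, 30.4 and 28.5, among 19 PRC1 genes with 10 positive and 9 negative. The arginine methyltransferase PRMT6 was among the genes higher in every SNHG10 library, at 6.01, 5.07 and 6.11 against 3.19, 1.41 and 2.55, while EHMT2, of lysine 9, overlapped at 10.6, 22.8 and 4.17 against 20.1, 19.2 and 21.9. Of 25 ISWI, INO80, SRCAP and TIP60 genes, 8 were positive and 17 negative (11 and 14 after median-ratio scaling), with CHRAC1 at 5.45, 5.21 and 5.81 against 9.13, 12.7 and 8.61 and DMAP1 at 4.32, 2.89 and 5.01 against 8.13, 6.897 and 7.804. Of 22 corepressor subunits, 8 were positive and 14 negative. SIN3B read 9.41, 10.5 and 12.9 against 15.97, 16.3 and 15.9, without overlap, and the histone chaperone RBBP4 8.54, 34.7 and 12.2 against 33.4, 42.1 and 26.8. COMPASS partners of the KMT2 and SETD1 enzymes were split 6 and 6, with HCFC2 at 1.29, 3.83 and 3.28 against 3.17, 4.09 and 5.38 and ASH2L at 6.18, 15.2 and 5.15 against 5.34, 5.08 and 5.72. Other methyltransferases were split 7 and 11. Other demethylases were split 3 and 3, with JMJD1C at 5.38, 4.54 and 5.83 against 5.82, 8.49 and 8.32 and JMJD6 at 14.9, 2.52 and 9.59 against 2.55, 4.27 and 6.36. Sirtuins, deacetylases that use NAD, were split 1 and 4, with SIRT3 at 5.02, 3.58 and 6.24 against 5.49, 5.92 and 9.64 and SIRT6 at 5.86, 6.59 and 3.92 against 10.7, 11.4 and 2.69. By limma the adjusted p was 0.885 or more for every tested gene of the lists in this paragraph.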

How the data were processed

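FPKM values per protein-coding transcript are what the authors deposited, per the file headers. The submitters' processing notes name Bowtie2 2.1.0 and the hg19 build. How FPKM were estimated is not given in the sources used here. Read depth is unknown, so no counting interval was computed, and a listed 0 can be a failed estimate. Groups and replicate numbers came from the sample titles, and 0 pairs of libraries held identical values.

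Transcript FPKM were summed per gene symbol. Genes, or transcript rows, that reached 1 FPKM in 3 or more libraries were fitted with limma 3.58.1 in R 4.3.3 (eBayes with trend) on log2(FPKM + 1), a scale that understates changes of low genes, with Benjamini-Hochberg adjustment over the whole table. The fit was also run on simulated data, and how many known changes it recovered or missed is not reported here. Members, lists and tests were chosen with earlier results of these data known. The naming rule took genes whose libraries did not overlap, the 3 most abundant and the 3 with the smallest p of each role, genes of related pairs, genes listed at 0, and the 2 smallest p of each list of partners. The remaining members are given by values or ranges, and 1 member's own values are not reported here. Alternatives were other filters, scalings, pseudocounts and variance models, a replicate block and leaving out each library.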

Additional observations from a re-analysis of the deposited data

How the results depend on the processing

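In all 15 alternatives, 0 chromatin genes and 0 of their transcript rows were called by limma, with 2 to 4 genes and 3 to 12 rows at an unadjusted p under 0.05. Over all genes, leave-one-out runs gave 0 to 1 higher and 0 to 1 lower, each outside the chromatin genes: HIST2H4B without LacZ replicate 2 and RRM1 without SNHG10 replicate 1, named after their values were seen. Deviations of same-numbered libraries correlated across genes at 0.0151, 0.0121 and 0.0161, below 0.1, and the numbers were not taken as pairs, though every library correlated best with its own number, a hint from the data and not the design. With the replicate block, 0 genes and 0 member rows were called. The members' median log2 difference ranged from -0.14 to -0.05 over leave-one-out runs, and was -0.10 for members averaging at least 5 FPKM, a setting added after seeing the data. Single values were recomputed for 25 genes and 7 transcripts, and not for the other genes printed. Among these, signs turned for 4 genes when a library was left out: BRD2 (-0.0522 without SNHG10 replicate 3 and -0.000981 without LacZ replicate 2, range to 0.32), CHD1L (-0.27 without LacZ replicate 3, range to 2.07), SMARCA1 (0.43 without SNHG10 replicate 1, range from -1.28) and SMARCAL1 (0.0491 without SNHG10 replicate 3, range from -0.31). The cause was not tested. The other 453 of the 458 recomputed values kept their direction and stayed uncalled. Further members turned sign in some settings, as the role counts show. The difference in the members' share of FPKM ran from -0.0152 to 0.00207 percentage points over leave-one-out runs. Unknown depth limits what genes under 1 FPKM can show.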

Other observations

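In 4 of the 84 genes, a library under 1 FPKM stood beside one of at least 10 FPKM in the same probe set: HDAC6, CHD1L, BRD9 and ARID4A. HDAC6-210 was the largest HDAC6 row in LacZ replicate 2 (15.1 FPKM), HDAC6-209 in LacZ replicate 3 (8.53), HDAC6-206 in SNHG10 replicate 1 (6.90), and all 7 rows were listed at 0 in SNHG10 replicate 3. CHD1L-211 read 18.1 in LacZ replicate 1 and at most 4.45 elsewhere, and CHD1L-202 ranged from 6.47 to 13.6 but for the 0 in LacZ replicate 3. BRD9-202 read 15.1, 0.355 and 1.54 with SNHG10 probes against 0.565, 6.18 and 2.45. ARID4A-205 read 8.61, 4.55 and 0 against 0, 7.52 and 0.

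SMARCA1 did not meet that limit. Its level came mainly from SMARCA1-201 in SNHG10 replicate 3 (19.5 FPKM), from SMARCA1-203 in SNHG10 replicate 2 (12.6) and LacZ replicate 2 (21.1), and from SMARCA1-202 in LacZ replicate 3 (19.6). These 3 rows cover nearly the same interval of chromosome X.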
